A study of Mus musculus with 8 samples.

Results

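The genes described here are 9 genes best known from T cells and innate lymphoid cells, taken by symbol from the 14980 genes of the deposited count table: Cd3e, Cd3g, Cd3d, Cd28, Cd2, Thy1, Gata3, Nkg7 and Rora. All 9 were in the table and all 9 passed the filter on low counts. That filter asks for a minimum level in only as many libraries as 1 group holds, so it can keep a gene for 1 group alone. They were compared between GPR35-positive macrophages, 4 libraries, and GPR35-negative macrophages, also 4 libraries. Both populations were sorted as MHCII+CD64+ cells from the colonic lamina propria of the same 4 male mice, so each mouse gave a library to each group and replicates 1 to 4 number the mice. No treatment is named for either group, and the labels name no strain, genotype or age. MHC class II presents antigen, CD64 is the high-affinity Fc gamma receptor, and GPR35 is a G protein-coupled receptor. No T cell marker is named as part of the gate. The libraries are bulk samples, so fewer cells of a type and less RNA per cell cannot be told apart.

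T cells recognise antigen through a receptor whose variable chains do not signal on their own. The CD3 chains carry the signal into the cell, CD28 adds a costimulatory signal on meeting CD80 or CD86, and CD2 helps the cell adhere to its partner. Innate lymphoid cells lack the antigen receptor but share transcription factors with T cells, among them GATA3 and RORα, which group 2 innate lymphoid cells need. In the colon both kinds of cell lie in the lamina propria close to macrophages. Several of these genes are not private to T cells: mouse B cells carry CD2, plasma cells can carry CD28, and RORα is made in many tissues.

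The libraries held 33.8 to 48.6 M counts in the GPR35-positive group and 16 to 30.1 M in the GPR35-negative group. Gpr35 stood at 56.2 to 91.8 CPM (counts per M counts of the library, after TMM scaling) in GPR35-positive libraries and at 1.13 to 4.69 CPM in GPR35-negative libraries, which checks the sort (log2 fold change 4.60 ± 0.39, SE; edgeR adjusted p = 1.07e-04). Genes that mark macrophages summed to 44153 to 52290 CPM in GPR35-positive and to 4746 to 23039 CPM in GPR35-negative libraries. Jchain, which encodes the joining chain of secreted IgA and IgM and marks plasma cells, stood at 665 to 2071 CPM in GPR35-positive and at 67739 to 134264 CPM in GPR35-negative libraries (log2 fold change −6.06 ± 0.44, SE; edgeR adjusted p = 5.42e-05). Macrophage genes were thus present in every library but at lower summed levels in the GPR35-negative ones, where the plasma cell gene stood far higher. In GPR35-negative libraries the B and plasma cell markers listed below summed to 73741 to 144311 CPM, above the macrophage genes. The name GPR35-negative macrophages is used here for the sorted population and follows the sort, not the RNA.

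All 9 genes were lower in GPR35-positive macrophages at an adjusted p under 0.05 in edgeR's quasi-likelihood test over all 14193 tested genes, of which 38.0% passed in either direction and 19.5% were lower. At least 4-fold lower and past the threshold were 8 of the 9, beside 9.30% of tested genes. The median log2 fold change of the 9 genes was −2.52, beside −0.05 for all tested genes. The filter on low counts could keep Thy1 and Cd3g for their GPR35-negative level alone, so nothing is read from their part in these counts. In 8 of the 9, every GPR35-positive library lay below every GPR35-negative library, as was so for 20.6% of tested genes, and Gata3 was the exception. With the animal as a replicate block, 5 of the 9 passed the threshold (Cd28, Cd2, Thy1, Nkg7 and Rora), beside 20.0% of tested genes lower. Leaving out 1 animal or 1 library at a time gave 3 to 9 genes past the threshold. The differences were of unequal size: Cd28 and Cd2 were more than 4 log2 units lower, Rora about 1, and the others between 2 and 3.

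**Figure D1:**
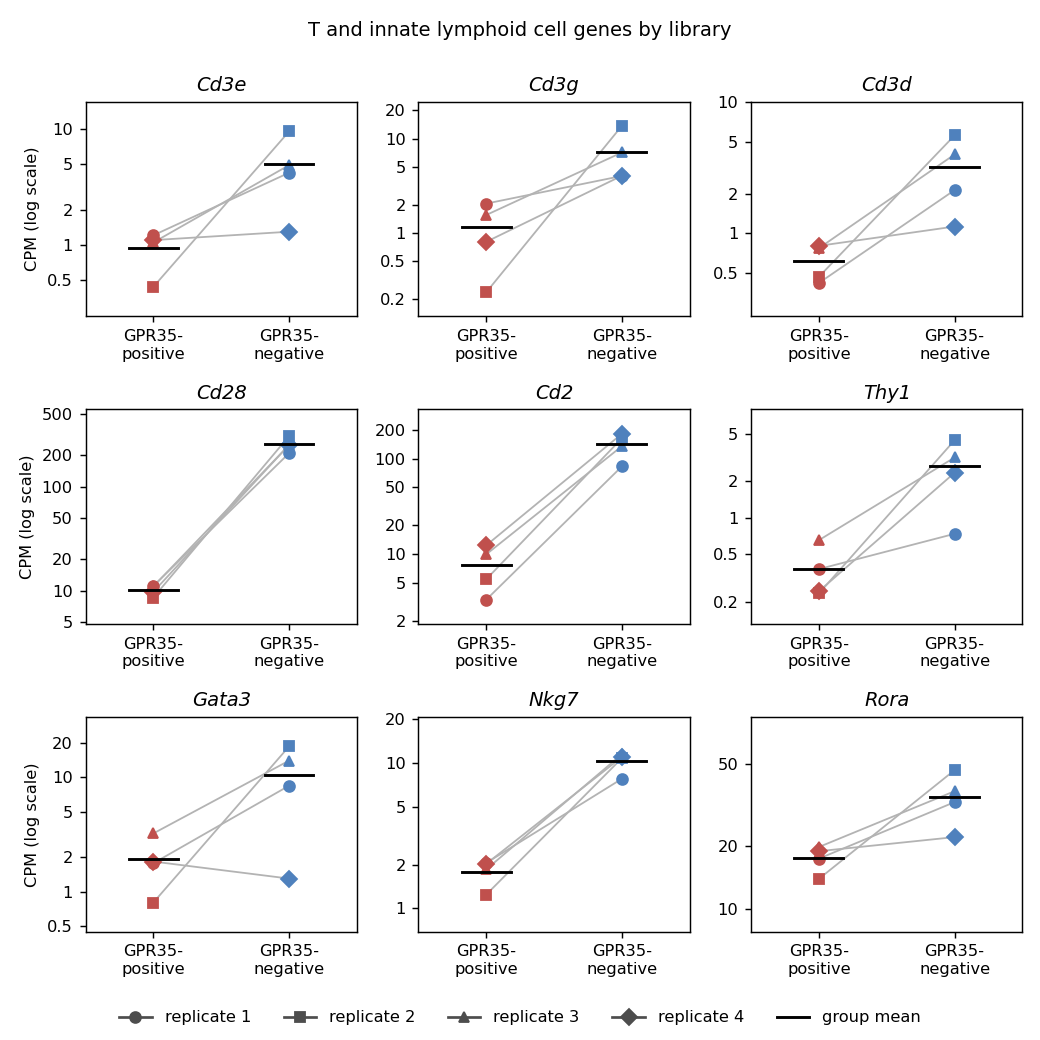
Each panel shows 1 gene, with CPM on a log scale for GPR35-positive libraries on the left and GPR35-negative libraries on the right; symbols mark replicates, grey lines join the libraries of 1 animal and black bars are group means. The GPR35-positive libraries lie lower in every animal for 8 genes, while Gata3 has 1 animal with the opposite order.

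The 3 CD3 chains share a short stretch of chromosome 9. In GRCm38.p6, Cd3g (Entrez gene 12502) spans 44969572 to 44980431 on the minus strand, Cd3d (12500) spans 44981769 to 44987052 on the plus strand, and Cd3e (12501) spans 44998735 to 45009663 on the minus strand. All are protein coding. Cd3g and Cd3d are transcribed away from each other from start sites 1338 bases apart, and the far ends of Cd3d and Cd3e face each other 11683 bases apart, so the cluster covers 40.1 kb. Thy1 lies on the same chromosome, 921 kb before Cd3g. The stretch from 250 to 61 bases before the start in the RefSeq promoter table is printed below for the 3 chains, because these neighbours moved in the same direction. For Cd3e and Cd3d that start lies slightly inside the gene bounds given above, while the printed stretch lies outside them. The build is GRCm38.p6, and each is written 5′ to 3′ on the gene's own strand, and capitals mark letters that match a searched motif.
Cd3e, chr9:45009672-45009861, minus strand: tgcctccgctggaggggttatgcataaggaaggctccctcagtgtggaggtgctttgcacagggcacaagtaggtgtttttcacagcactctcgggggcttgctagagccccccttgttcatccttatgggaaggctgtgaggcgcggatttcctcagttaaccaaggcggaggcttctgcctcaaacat
Cd3g, chr9:44980492-44980681, minus strand: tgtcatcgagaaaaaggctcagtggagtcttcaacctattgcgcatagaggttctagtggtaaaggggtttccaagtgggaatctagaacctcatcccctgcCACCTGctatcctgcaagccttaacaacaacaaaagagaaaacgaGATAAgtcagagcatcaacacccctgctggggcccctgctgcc
Cd3d, chr9:44981536-44981725, plus strand: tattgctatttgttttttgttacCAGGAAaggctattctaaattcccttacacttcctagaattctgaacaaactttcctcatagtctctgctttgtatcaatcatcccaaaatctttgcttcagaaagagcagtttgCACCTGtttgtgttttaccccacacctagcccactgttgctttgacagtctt
The motifs searched on both strands were GATAA for GATA factors, TGTGGT for RUNX factors, CAGGAA for ETS factors and CANCTG for E-box binding factors. Cd3g held 1 GATA and 1 E-box match, Cd3d held 1 ETS and 1 E-box match, and Cd3e held none of the 4. No match overlapped another in these 3 stretches. The same stretch held the GATA motif in 18.7%, the RUNX motif in 11.0%, the ETS motif in 20.0% and the E-box motif in 36.8% of 32851 mouse promoters. A match here is a description of letters only. Of the 9 genes, 6 were in the promoter table; Cd28, Cd2 and Thy1 were not printed.

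Cd3e, the epsilon chain that pairs with both CD3 gamma and CD3 delta, stood at 1.21, 0.435, 1.05 and 1.10 CPM in GPR35-positive replicates 1 to 4 and at 4.19, 9.51, 4.87 and 1.30 CPM in GPR35-negative replicates 1 to 4. These values rest on 13 to 52 counts in GPR35-positive and 39 to 160 counts in GPR35-negative libraries. The groups did not overlap, but GPR35-negative replicate 4 came close to the GPR35-positive libraries. This gave a log2 fold change of −2.38 ± 0.66 (SE; adjusted p = 0.0202 in edgeR). With the replicate block it was −2.12 ± 0.81 (edgeR adjusted p = 0.0827). Without replicate 1, 2 or 3, without GPR35-positive replicate 4 or without GPR35-negative replicate 2, the edgeR adjusted p was 0.0520 to 0.0929. In the annotation an antisense gene, Gm48719, overlaps Cd3e exons, and the libraries do not mark strand, so reads of the 2 cannot be told apart.

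Cd3g, the gamma chain, stood at 2.05, 0.234, 1.55 and 0.805 CPM in GPR35-positive replicates 1 to 4 and at 4.03, 13.7, 7.15 and 4.05 CPM in GPR35-negative replicates 1 to 4. GPR35-positive replicate 2 held only 7 counts of Cd3g, and its partner, GPR35-negative replicate 2, was the highest of all. The groups did not overlap, with a log2 fold change of −2.63 ± 0.71 (SE; adjusted p = 0.0189 in edgeR). With the replicate block it was −2.63 ± 0.86 (edgeR adjusted p = 0.0539). Without replicate 3 or 4, without GPR35-positive replicate 4 or without GPR35-negative replicate 2, the edgeR adjusted p was 0.0514 to 0.0675.

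Cd3d, the delta chain, stood at 0.420, 0.468, 0.773 and 0.805 CPM in GPR35-positive replicates 1 to 4 and at 2.14, 5.59, 4.0 and 1.13 CPM in GPR35-negative replicates 1 to 4. As for Cd3e, the groups did not overlap and GPR35-negative replicate 4 was the lowest of its group. In edgeR its log2 fold change was −2.37 ± 0.64 (SE; adjusted p = 0.0185), and −2.20 ± 0.75 with the replicate block (edgeR adjusted p = 0.0596). Without replicate 1, 2 or 3, without GPR35-positive replicate 1 or without GPR35-negative replicate 2, the edgeR adjusted p was 0.0505 to 0.0887. The 3 chains together held 158, 34, 135 and 111 counts in GPR35-positive replicates 1 to 4 and 339, 485, 401 and 195 counts in GPR35-negative replicates 1 to 4. As summed CPM this was 3.68, 1.14, 3.37 and 2.71 in GPR35-positive and 10.4, 28.8, 16 and 6.48 in GPR35-negative replicates 1 to 4, so CD3 RNA was present at a low level in every library of both groups.

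Cd28 (Entrez gene 12487, chromosome 1, 60746388 to 60773359, plus strand) encodes the main costimulatory receptor of T cells. It stood at 11.1, 8.60, 11.0 and 9.75 CPM in GPR35-positive replicates 1 to 4 and at 209, 305, 250 and 251 CPM in GPR35-negative replicates 1 to 4. The 4 values within each group lay close together, and the groups were far apart. Mean Cd28 was 10.1 ± 1.18 CPM in GPR35-positive and 254 ± 39.7 CPM in GPR35-negative libraries (SD, n = 4 each), or 25.1-fold lower in the GPR35-positive ones. Cd28 had a log2 fold change of −4.65 ± 0.17 (SE; adjusted p = 6.00e-06 in edgeR), larger in size than those of the other 8 genes. Counts ran from 257 to 478 in GPR35-positive and from 5141 to 7560 in GPR35-negative libraries.

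Cd2 (Entrez gene 12481, chromosome 3, 101275908 to 101287939, minus strand) encodes an adhesion receptor that in mice binds CD48. It stood at 3.31, 5.42, 9.90 and 12.3 CPM in GPR35-positive replicates 1 to 4 and at 82.8, 163, 135 and 182 CPM in GPR35-negative replicates 1 to 4. The groups were again far apart, while replicate 1 was the lowest animal in both. The mean was 7.74 ± 4.12 CPM in GPR35-positive and 141 ± 43.2 CPM in GPR35-negative libraries (SD, n = 4 each), 18.2-fold lower in the GPR35-positive ones. Cd2 had a log2 fold change of −4.18 ± 0.45 (SE; adjusted p = 3.07e-04 in edgeR). Cd28, Cd2 and Nkg7 passed the threshold in all 23 other settings tried wherever they were tested.

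Thy1 (Entrez gene 21838, chromosome 9, 44043384 to 44048579, plus strand) encodes a small surface glycoprotein that marks mouse T cells and innate lymphoid cells and is also made by fibroblasts and neurons. It stood at 0.373, 0.234, 0.649 and 0.244 CPM in GPR35-positive replicates 1 to 4 and at 0.733, 4.40, 3.16 and 2.36 CPM in GPR35-negative replicates 1 to 4. GPR35-negative replicate 1 stood just above the highest GPR35-positive library, and the other 3 well above it. The GPR35-positive values rest on 7 to 26 counts, so the filter could keep Thy1 for its GPR35-negative level alone. Thy1 had a log2 fold change of −2.81 ± 0.73 (SE; adjusted p = 0.0155 in edgeR), with an edgeR adjusted p of 0.0547 to 0.0746 without replicate 2, 3 or 4 or without GPR35-positive replicate 4. With the replicate block it was −2.67 ± 0.84, just under the limit (edgeR adjusted p = 0.0474).

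Nkg7 (Entrez gene 72310, chromosome 7, 43437138 to 43438246, plus strand) encodes a granule membrane protein of NK cells and cytotoxic T cells. It stood at 2.05, 1.24, 1.85 and 2.02 CPM in GPR35-positive replicates 1 to 4 and at 7.79, 10.8, 11.5 and 11.0 CPM in GPR35-negative replicates 1 to 4. Both groups were narrow and did not overlap, and the GPR35-positive values rest on 37 to 88 counts. The mean was 1.79 ± 0.379 CPM in GPR35-positive and 10.3 ± 1.70 CPM in GPR35-negative libraries (SD, n = 4 each), with a log2 fold change of −2.52 ± 0.31 (SE; adjusted p = 5.17e-04 in edgeR).

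Gata3 (Entrez gene 14462, chromosome 2, 9857078 to 9887953, minus strand) encodes the transcription factor that directs T cell development, type 2 helper cells and group 2 innate lymphoid cells. It stood at 1.77, 0.803, 3.22 and 1.83 CPM in GPR35-positive replicates 1 to 4 and at 8.40, 18.5, 13.9 and 1.30 CPM in GPR35-negative replicates 1 to 4. In replicate 4 the order was turned, and that GPR35-negative library lay among the GPR35-positive ones. In edgeR the difference was −2.46 ± 0.75 on the log2 scale (SE; adjusted p = 0.0300), lower in 3 of 4 animals. With the replicate block the log2 fold change was −2.12 ± 0.84 (edgeR adjusted p = 0.0932). Without replicate 1, 2 or 3, without GPR35-positive replicate 1, 2 or 4, or without GPR35-negative replicate 2 or 3, the edgeR adjusted p was 0.0666 to 0.143. Antisense Gm13256 and same-strand 9230102O04Rik overlap Gata3 exons in the annotation, so some reads may belong to them.

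Rora (Entrez gene 19883, chromosome 9, 68653404 to 69388246, plus strand) encodes the nuclear receptor RORα. It stood at 17.4, 13.9, 19.8 and 18.9 CPM in GPR35-positive replicates 1 to 4 and at 32.6, 46.5, 36.8 and 22.1 CPM in GPR35-negative replicates 1 to 4. The groups did not overlap, though GPR35-negative replicate 4 lay near the highest GPR35-positive library. The log2 fold change, −0.98 ± 0.23 (SE; edgeR adjusted p = 0.0112), was smaller in size than those of the other 8 genes. The edgeR adjusted p was 0.0670 without replicate 2 and 0.0530 without replicate 3. An antisense gene, Gm15511, overlaps Rora exons in the annotation.

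Levels can be set side by side between genes once they are divided by gene length, here the length in the deposited table. Per kilobase, Cd2 led both groups, with 6.77 ± 3.60 CPM per kilobase in GPR35-positive and 123 ± 37.8 in GPR35-negative libraries (SD, n = 4 each). Cd28 stood at 2.34 ± 0.274 CPM per kilobase in GPR35-positive and 58.8 ± 9.19 in GPR35-negative libraries, and Nkg7 at 2.20 ± 0.466 in GPR35-positive and 12.7 ± 2.09 in GPR35-negative libraries. The CD3 chains were far below Cd2 and Cd28 in GPR35-negative libraries. Cd3g averaged 1.13 ± 0.784 CPM per kilobase in GPR35-positive and 7.08 ± 4.46 in GPR35-negative libraries, and Cd3e 0.660 ± 0.243 in GPR35-positive and 3.46 ± 2.37 in GPR35-negative libraries. Cd3d averaged 0.463 ± 0.151 in GPR35-positive and 2.42 ± 1.49 in GPR35-negative libraries. Rora, with the longest listed length of the 9, came to 1.4 ± 0.210 CPM per kilobase in GPR35-positive and 2.80 ± 0.821 in GPR35-negative libraries, close to the CD3 chains. Gata3 averaged 0.593 ± 0.309 in GPR35-positive and 3.28 ± 2.3 in GPR35-negative libraries, and Thy1, the lowest of the 9 in both groups, 0.216 ± 0.111 in GPR35-positive and 1.53 ± 0.885 in GPR35-negative libraries. By mean in GPR35-negative libraries Cd3e was followed by Gata3, Rora, Cd3d and Thy1, and each neighbouring pair in that order changed places in at least 1 of the 4 libraries. Rora lay above Thy1, and Cd3e above Cd3d, in all 4.

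**Figure D2:**
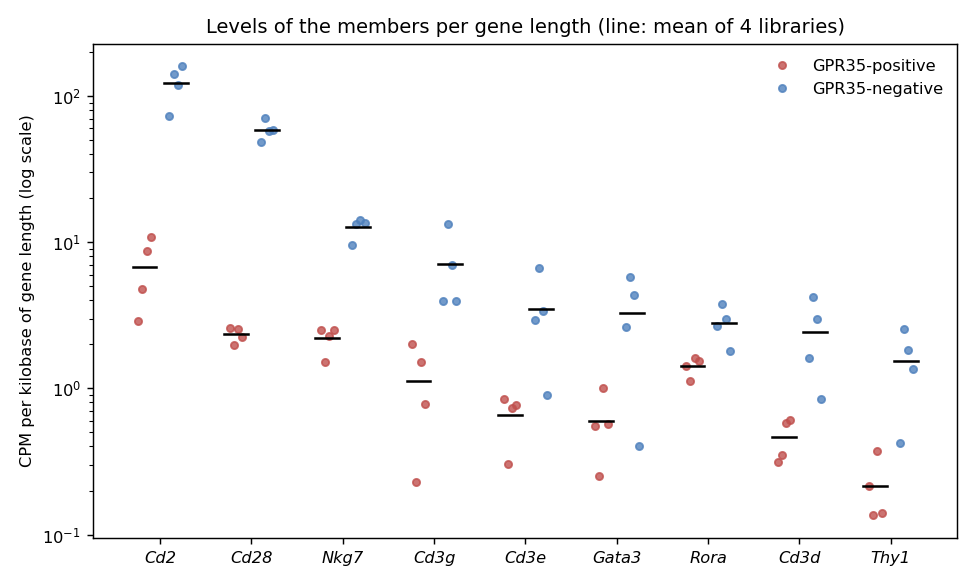
CPM per kilobase of gene length on a log scale for each of the 9 genes, with GPR35-positive libraries to the left of GPR35-negative libraries, points for single libraries and lines for means of 4. Cd2 and Cd28 stand apart from the other 7 genes in the GPR35-negative libraries.

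Within animals, the log2 difference of CPM (prior count 2) was −4.22, −5.14, −4.50 and −4.68 for Cd28 in replicates 1 to 4, and −4.62, −4.89, −3.77 and −3.88 for Cd2. Nkg7 differed by −1.89, −3.07, −2.61 and −2.41. These 3 genes were lower by similar amounts in each mouse. Cd3e differed by −1.74, −4.27, −2.15 and −0.23, Cd3g by −0.95, −5.54, −2.16 and −2.25, and Cd3d by −2.19, −3.41, −2.28 and −0.46. The CD3 chains thus ranged from a small to a very large difference, the largest in replicate 2 for all 3 chains. Thy1 differed by −0.87, −3.91, −2.18 and −2.99, Gata3 by −2.21, −4.42, −2.09 and 0.48, and Rora by −0.90, −1.73, −0.89 and −0.23. Replicate 2 gave the largest difference for all 9 genes; its GPR35-negative library had the smallest total of the 8, at 16 M counts.

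**Figure D3:**
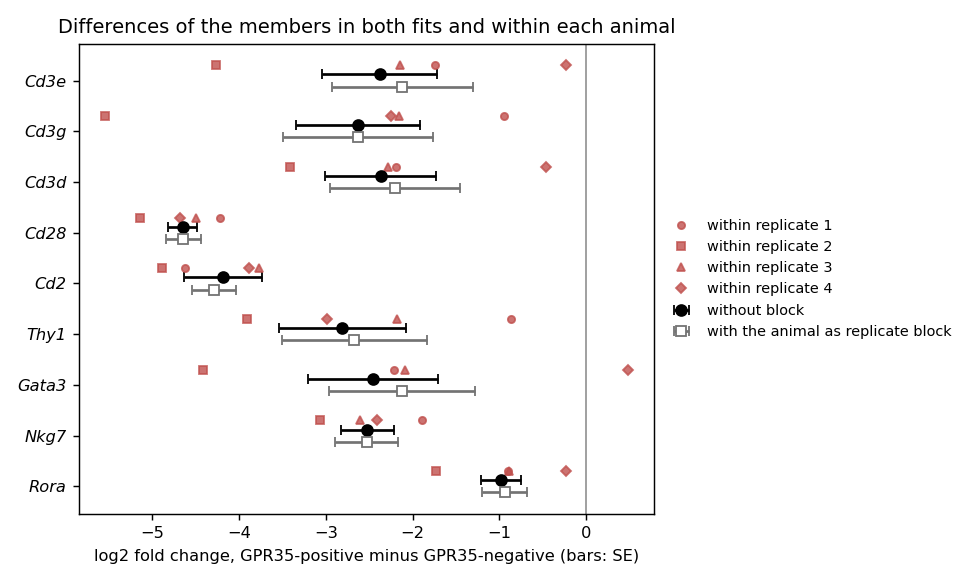
Log2 fold change, GPR35-positive minus GPR35-negative, for the 9 genes: black circles without the block, open squares with the animal as replicate block (bars, SE), and small symbols for each animal's own difference. All lie below 0 except Gata3 in replicate 4, at 0.48.

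The 9 genes differed in how widely they varied across the 4 GPR35-negative libraries. The highest of these libraries exceeded the lowest 1.46-fold for Cd28, 1.48-fold for Nkg7, 2.11-fold for Rora and 2.20-fold for Cd2. The spread was wider for Cd3g (3.4-fold), Cd3d (4.94-fold), Thy1 (6.0-fold), Cd3e (7.34-fold) and Gata3 (14.3-fold). GPR35-negative replicate 4 held 0.261 of the group mean for Cd3e, 0.352 for Cd3d and 0.123 for Gata3, yet 0.990 for Cd28, 1.29 for Cd2 and 1.07 for Nkg7. GPR35-negative replicate 2 was highest of its group for Cd3e, Cd3g, Cd3d, Thy1, Gata3, Rora and Cd28, at 1.20 to 1.91 times the group mean. These contrasts were chosen after the values were seen and carry no test.

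**Figure D4:**
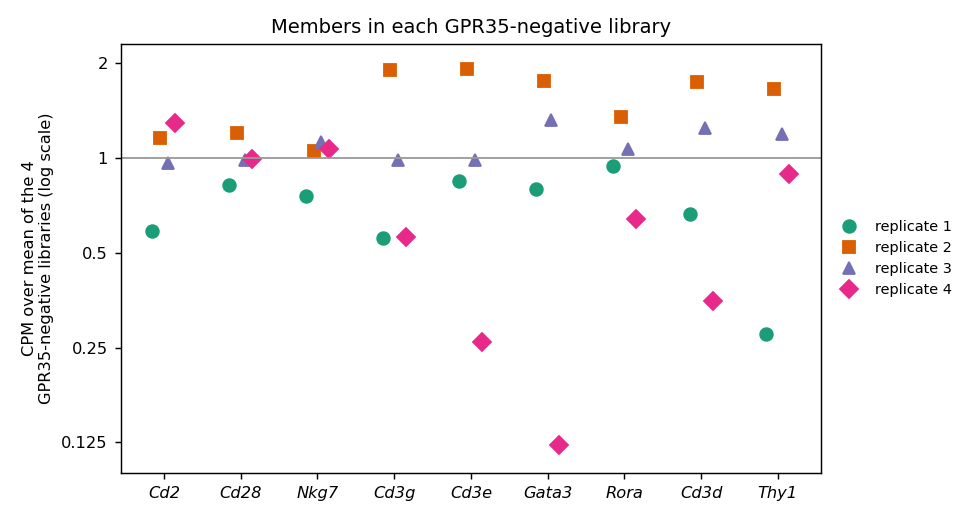
CPM of each gene in each GPR35-negative library divided by the mean of the 4, on a log scale, with symbols for replicates 1 to 4. Replicate 4 lies at 0.123 for Gata3 and 0.261 for Cd3e but at 0.990 for Cd28 and 1.29 for Cd2.

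The ratio of Cd28 to the mean of the CD3 chains, per kilobase, was 2.45, 6.76, 2.70 and 3.14 in GPR35-positive replicates 1 to 4 and 17.1, 8.76, 13 and 30.5 in GPR35-negative replicates 1 to 4. The ratio of Cd2 to the CD3 chains was 2.74, 16.1, 9.20 and 15.0 in GPR35-positive and 25.6, 17.6, 26.5 and 83.7 in GPR35-negative replicates 1 to 4. Both ratios were lower in every GPR35-positive library than in every GPR35-negative library, so Cd28 and Cd2 differed between the groups by more than the CD3 chains did. The ratio of Gata3 to the CD3 chains was 0.522, 0.848, 1.06 and 0.792 in GPR35-positive and 0.926, 0.711, 0.972 and 0.212 in GPR35-negative replicates 1 to 4, with overlapping groups. For Nkg7 it was 2.39, 5.17, 2.41 and 3.46 in GPR35-positive and 3.4, 1.65, 3.18 and 7.12 in GPR35-negative replicates 1 to 4, also overlapping. Jchain, the plasma cell gene, gave 124, 77.4, 189 and 187 counts per Cd28 count in GPR35-positive and 325, 440, 402 and 373 in GPR35-negative replicates 1 to 4. The 2 genes thus differed in the same direction, Jchain by the larger factor. The ratios were chosen after the values were seen, and the part of plasma cell RNA in the Cd28 and Cd2 differences was not tested.

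Across the 8 libraries, the genes outside the 9 whose log2 CPM correlated most closely with the mean of the CD3 chains were Icos (Pearson r = 0.990), an inducible costimulator of T cells related to CD28, then Rab39b (0.986), Fam8a1 (0.985), Dtx1 (0.981) and Lck (0.975), the kinase that starts T cell receptor signalling. After subtracting each group's mean they were Map2k7 (0.987), Ccdc125 (0.985), Anapc7 (0.984), Ube4a (0.983) and Surf6 (0.982). The lists share no gene. Among the 9, the correlation with the CD3 mean after subtracting group means was 0.963 for Rora, 0.911 for Gata3, 0.721 for Cd28, 0.552 for Thy1, 0.520 for Nkg7 and 0.101 for Cd2. These are descriptions over 8 libraries from 4 animals, picked from all tested genes, and share depth and the group difference where it was not removed.

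The 7 companion lists hold 111 other genes of T, NK and innate lymphoid cells, of which 101 were in the table and 98 were tested. Of these 98, 42 were lower and 11 higher in GPR35-positive macrophages, beside 19.5% of all tested genes lower and 18.4% higher. The same shares are the background for the counts of each list below. Their median log2 fold change was −1.77, beside −0.05. With the replicate block 39 were lower and 13 higher. Genes near 0 in GPR35-positive libraries, such as Tigit, Prf1 and Gzma, could pass the filter on low counts for their GPR35-negative level alone. Nothing is read from the calls of such genes. The number called higher depends on the scaling. Scaling to macrophage identity genes gave 82 lower and 0 higher in edgeR, also 0 higher at an unadjusted p under 0.05. Most of those identity genes were themselves higher in GPR35-positive libraries, and this scaling moved the median of all tested genes to −2.45. Lost calls and turned directions under it, here and below, cannot be told apart from that shift. DESeq2 gave 12 higher and limma voom 14.

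Among antigen receptor chains and coreceptors, 6 of 10 listed genes were in the table and tested; the constant regions Trac, Trbc1, Trbc2 and Trdc were not analysed here. In edgeR 0 of the 6 were lower past the threshold and 1 was higher, with 2 lower at an unadjusted p under 0.05; DESeq2 gave 2 lower and limma voom 1. Cd4, the coreceptor for MHC class II, which mouse gut macrophages also carry, stood at 168 ± 6.87 CPM in GPR35-positive and 47.0 ± 22.7 CPM in GPR35-negative libraries (SD, n = 4 each; log2 fold change 1.83 ± 0.28, SE; edgeR adjusted p = 0.00159). Scaled to macrophage identity genes instead, Cd4 was at −0.30 and did not pass (edgeR adjusted p = 0.557). Cd8a, a coreceptor for MHC class I, averaged 0.552 ± 0.105 CPM in GPR35-positive and 1.01 ± 0.766 CPM in GPR35-negative libraries (edgeR adjusted p = 0.554). Cd8b1, its partner chain, averaged 0.198 ± 0.188 CPM in GPR35-positive and 1.52 ± 0.386 CPM in GPR35-negative libraries and did not pass in edgeR (adjusted p = 0.0508), but passed in DESeq2 (adjusted p = 0.00658).

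Of 16 tested receptor-proximal signalling genes, 8 were lower and 3 higher (median log2 fold change −1.98), and 6 and 3 with the replicate block. The share higher is near the 18.4% of all tested genes. Lat, the membrane scaffold of T cell receptor signalling, averaged 0.543 ± 0.135 CPM in GPR35-positive and 4.72 ± 1.20 CPM in GPR35-negative libraries (−3.11 ± 0.46; edgeR adjusted p = 0.00120). The 3 higher genes work in several kinds of leukocyte. Rasgrp1, a Ras activator, averaged 135 ± 23.5 CPM in GPR35-positive and 17 ± 5.28 CPM in GPR35-negative libraries (2.99 ± 0.24; edgeR adjusted p = 8.66e-05). Under scaling to macrophage identity genes it was at 0.78 (edgeR adjusted p = 0.140) and Lcp2 at 0.20 (edgeR adjusted p = 0.692), so neither passed. Vav1, a signalling protein of blood cells, averaged 391 ± 60.2 CPM in GPR35-positive and 118 ± 45.8 CPM in GPR35-negative libraries (1.73 ± 0.27; edgeR adjusted p = 0.00170). Under scaling to macrophage identity genes Vav1 was at −0.44 and did not pass (edgeR adjusted p = 0.382). Lcp2, the adaptor SLP-76, averaged 336 ± 43.9 CPM in GPR35-positive and 76.9 ± 56.2 CPM in GPR35-negative libraries (2.13 ± 0.52; edgeR adjusted p = 0.0123), and its edgeR adjusted p was 0.0516 without replicate 2 and 0.0555 without replicate 3.

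Of 13 costimulatory and inhibitory receptors, 7 were lower and 1 higher (median −2.29). Ctla4, an inhibitory receptor that competes with CD28 for its ligands, averaged 5.05 ± 2.3 CPM in GPR35-positive and 160 ± 31.3 CPM in GPR35-negative libraries (−4.98 ± 0.43; edgeR adjusted p = 1.10e-04). Tigit, another inhibitory receptor, averaged 0.349 ± 0.225 CPM in GPR35-positive and 15.6 ± 3.60 CPM in GPR35-negative libraries (−5.46 ± 0.60; edgeR adjusted p = 3.16e-04). Both differed by more than the CD3 chains did in size of log2 fold change. Tnfrsf18, the costimulatory receptor GITR, averaged 5.55 ± 1.22 CPM in GPR35-positive and 18.6 ± 2.84 CPM in GPR35-negative libraries (−1.75 ± 0.24; edgeR adjusted p = 8.64e-04). Lag3, an inhibitory receptor that binds MHC class II, was the 1 higher gene, at 4.78 ± 0.996 CPM in GPR35-positive and 0.769 ± 0.40 CPM in GPR35-negative libraries (2.62 ± 0.52; edgeR adjusted p = 0.00475). It did not pass under scaling to macrophage identity genes (0.25; edgeR adjusted p = 0.826).

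Of 17 tested lineage transcription factors, 6 were lower and 4 higher (median −1.26). The share higher is near the 18.4% of all tested genes. Ikzf3, or Aiolos, a factor of B and T lymphocytes, averaged 3.22 ± 2.37 CPM in GPR35-positive and 101 ± 30.0 CPM in GPR35-negative libraries (−4.97 ± 0.54; edgeR adjusted p = 3.05e-04). Ets1, a lymphoid ETS factor, averaged 22.1 ± 8.86 CPM in GPR35-positive and 145 ± 44.7 CPM in GPR35-negative libraries (−2.71 ± 0.35; edgeR adjusted p = 7.43e-04). The 4 higher genes were Runx3, Nfil3, Zbtb7b and Id2, with log2 fold changes of 2.14, 1.99, 1.08 and 0.99. Runx3, a RUNX factor of cytotoxic lymphocytes and innate lymphoid cells, averaged 94.8 ± 20.5 CPM in GPR35-positive and 21.5 ± 6.16 CPM in GPR35-negative libraries (edgeR adjusted p = 3.21e-04). Under scaling to macrophage identity genes all 4 values were negative, at −0.08 for Runx3, −0.25 for Nfil3, −1.32 for Zbtb7b and −1.18 for Id2. Only Id2 passed there (edgeR adjusted p = 0.0244), and the others had an edgeR adjusted p of 0.882, 0.637 and 0.0569. The call was lost for Zbtb7b without replicate 3 and for Id2 without replicate 3 or 4 (edgeR adjusted p 0.0526, 0.0587 and 0.0728).

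Of 18 tested innate lymphoid cell genes, 8 were lower, 1 was higher and 9 did not pass (median −1.99). With the replicate block 7 were lower and 2 higher. Il7r averaged 30.9 ± 4.06 CPM in GPR35-positive and 17.1 ± 14.1 CPM in GPR35-negative libraries. It did not pass (edgeR adjusted p = 0.171) but was higher with the block (edgeR adjusted p = 0.0405). Kit (−0.19; edgeR adjusted p = 0.755) and Il1rl1 (−0.43; edgeR adjusted p = 0.735) were among those that did not pass. Kcnn4, a calcium-activated potassium channel, averaged 66.8 ± 9.81 CPM in GPR35-positive and 315 ± 29.2 CPM in GPR35-negative libraries (−2.24 ± 0.15; edgeR adjusted p = 3.29e-05). Il2rb, a receptor subunit for IL-2 and IL-15, averaged 2.74 ± 0.583 CPM in GPR35-positive and 39.2 ± 16.3 CPM in GPR35-negative libraries (−3.83 ± 0.33; edgeR adjusted p = 1.07e-04). Ltb, lymphotoxin beta, averaged 3.82 ± 0.910 CPM in GPR35-positive and 27.9 ± 14.9 CPM in GPR35-negative libraries (−2.87 ± 0.45; edgeR adjusted p = 0.00177). Hpgds, a prostaglandin D2 synthase, was the 1 higher gene, at 236 ± 46.5 CPM in GPR35-positive and 65.4 ± 45.8 CPM in GPR35-negative libraries (1.85 ± 0.45; edgeR adjusted p = 0.0117). Under scaling to macrophage identity genes Hpgds was at −0.08 and did not pass (edgeR adjusted p = 0.875). With TMM scaling its edgeR adjusted p was 0.0528 without replicate 2 and 0.0790 without replicate 4.

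Of 17 tested cytotoxic and NK cell genes, 8 were lower, 1 was higher and 8 did not pass (median −2.98). With the replicate block 7 were lower and 1, Klrd1, was higher. Klrd1 averaged 9.78 CPM in GPR35-positive and 3.43 CPM in GPR35-negative libraries (edgeR adjusted p = 0.127, and 0.0415 with the block). Klrk1 averaged 47.9 CPM in GPR35-positive and 13.9 CPM in GPR35-negative libraries (edgeR adjusted p = 0.154). Both were higher in GPR35-positive libraries in every animal. Prf1, the pore-forming perforin, averaged 0.115 ± 0.0953 CPM in GPR35-positive and 10.3 ± 3.74 CPM in GPR35-negative libraries (−6.39 ± 0.79; edgeR adjusted p = 5.53e-04). Gzma, the granule protease granzyme A, averaged 0.149 ± 0.137 CPM in GPR35-positive and 7.55 ± 2.44 CPM in GPR35-negative libraries (−5.59 ± 0.88; edgeR adjusted p = 0.00170). GPR35-positive replicate 2 had 0 counts of either gene, so the size of these fitted values depends on a few counts. Both genes could pass the filter for their GPR35-negative level alone, so nothing is read from their calls. Ifng, interferon gamma, averaged 0.850 ± 0.25 CPM in GPR35-positive and 8.41 ± 6.05 CPM in GPR35-negative libraries (−3.29 ± 0.57; edgeR adjusted p = 0.00268). Ccl5, a chemokine of lymphocytes and macrophages, was higher, at 19.9 ± 10.2 CPM in GPR35-positive and 8.82 ± 2.68 CPM in GPR35-negative libraries (1.18 ± 0.41; edgeR adjusted p = 0.0481). This call was lost with the replicate block (edgeR adjusted p = 0.0622) and in 9 of the 12 fits without an animal or a library. RLE scaling (edgeR adjusted p = 0.0510), library-size scaling (0.101), thinning (0.0523) and limma voom (adjusted p = 0.0662) also lost it. Under scaling to macrophage identity genes Ccl5 was at −1.07 and did not pass (edgeR adjusted p = 0.103).

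Of 12 lymphocyte homing and residence genes, 5 were lower and 0 higher in edgeR (median −1.0), with 1 higher at an unadjusted p under 0.05, in DESeq2, in limma voom and with the replicate block. Itgb7, the integrin beta chain of gut-homing lymphocytes, averaged 96.5 ± 33.4 CPM in GPR35-positive and 412 ± 74.2 CPM in GPR35-negative libraries (−2.10 ± 0.29; edgeR adjusted p = 0.0010). Ccr9, the small-intestinal homing receptor, averaged 1.24 ± 0.262 CPM in GPR35-positive and 21.3 ± 15.4 CPM in GPR35-negative libraries (−4.10 ± 0.60; edgeR adjusted p = 0.00124). Gpr15, a colon homing receptor, averaged 1.01 ± 0.893 CPM in GPR35-positive and 22.1 ± 13.2 CPM in GPR35-negative libraries (−4.43 ± 0.84; edgeR adjusted p = 0.00402). CCR9 and integrin beta 7 are also carried by plasma cells of the gut.

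**Figure D5:**
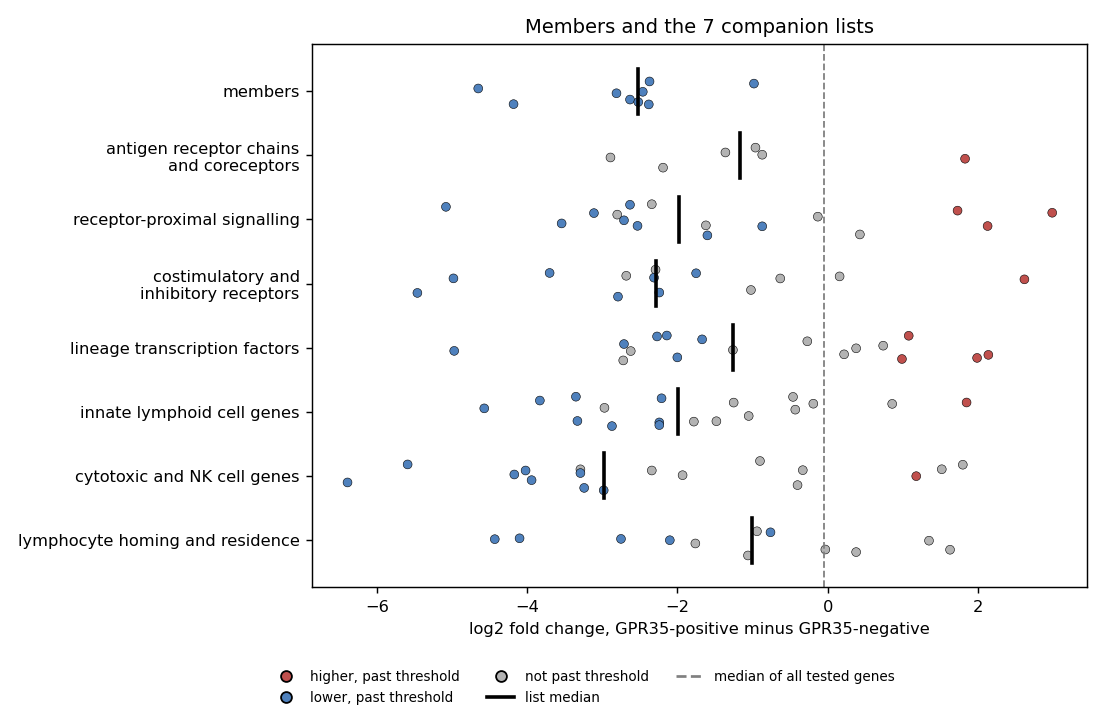
Log2 fold change, GPR35-positive minus GPR35-negative, of each tested gene of the 9 members and the 7 companion lists; blue points are lower and red points higher past the threshold, grey points are not past it, black bars are list medians and the dashed line is the median of all tested genes, −0.05. The 9 genes all lie left of 0, while 6 of the 7 companion lists hold at least 1 red point.

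Of 14 tested B and plasma cell markers, 12 were lower and 1, Prdm1, was higher in GPR35-positive macrophages (median log2 fold change −5.03), and the list summed to 1444 to 2875 CPM in GPR35-positive and 73741 to 144311 CPM in GPR35-negative libraries. Of 15 stromal and endothelial markers, 10 were lower (median −2.76), or 13 with the replicate block. Their sums were 998 to 2118 CPM in GPR35-positive and 5329 to 10456 CPM in GPR35-negative libraries. Epithelial markers summed to 94.7 to 172 CPM in GPR35-positive and 208 to 594 CPM in GPR35-negative libraries, and 3 of 13 were lower, a share near that of all tested genes. With the replicate block 5 of the 13 were lower, beside 20.0% of all tested genes. Granulocyte and mast cell markers summed to 115 to 167 CPM in GPR35-positive and 103 to 253 CPM in GPR35-negative libraries, with 2 of 9 lower and 1 higher, also near the 19.5% lower of all tested genes. Of 20 macrophage identity genes, 18 were higher and 0 lower in edgeR (median 2.05), also 0 lower at an unadjusted p under 0.05; DESeq2 gave 1 lower and limma voom 0. None of these lists had a marker at 0 in all GPR35-positive libraries. The part of these other cells' RNA in the differences of the 9 genes was not tested.

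Scaling every library to the macrophage identity genes moved the median log2 fold change of all tested genes to −2.45. All 9 genes were lower then, as were 11753 of 14193 tested genes, so nothing is read from that count. Relative to that median, Cd28 lay at −4.62, Cd2 at −4.23, Thy1 at −2.88, Cd3g at −2.57, Nkg7 at −2.55, Gata3 at −2.38, Cd3d at −2.33, Cd3e at −2.22 and Rora at −0.89. The main fit gave nearly the same distances from its own median, from −4.60 for Cd28 to −0.93 for Rora. A shift shared by nearly all genes drops out of such distances, so they are no separate check.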

How the data were processed

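Low-input RNA sequencing gave 8 libraries from 4 mice. Per the labels' protocols, epithelium was stripped, the lamina propria was digested, cells were sorted into Trizol and SMART-Seq v4 cDNA went into Nextera XT libraries. That method marks no strand and uses no molecular identifiers, so PCR copies count as reads. Per the submitters' processing notes, the tools were STAR 2.5.2a and R 3.4.2 with genome build mm10; no source used here gives the counting tool. The deposited table holds raw counts per gene and a gene length. Of its 14980 genes, 9 carried no symbol (0.0179% of counts). Every gene in it has 18 counts or more in some library, so genes under a low limit are not analysed here. Library totals over the listed genes ran from 33.8 to 48.6 M in GPR35-positive and from 16.0 to 30.1 M in GPR35-negative libraries.

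Counts were tested with edgeR 4.0.16 (R 4.3.3): filterByExpr (minimum count 10, minimum total 15), TMM scaling, a robust quasi-likelihood F-test without a block, and Benjamini-Hochberg adjustment over all 14193 tested genes and a limit of 0.05. Positive log2 fold changes mean higher in GPR35-positive libraries, and SE is their size over the square root of F. CPM uses TMM effective library sizes, and within-animal differences use log2 CPM with a prior count of 2. Summaries were computed in Python 3.11.15. Positions are from GRCm38.p6, to which 14944 genes were matched by Entrez ID.

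In the labels each animal number stands on 1 library of each group, so libraries are paired by animal. The main fit does not use this pairing, while the fit with the replicate block does. After subtracting group means, the 2 libraries of an animal correlated at 0.205, 0.206, 0.432 and 0.0637 over genes (replicates 1 to 4). The highest correlation with a library of another animal was 0.104, 0.0913, 0.172 and 0.237, so for replicate 4 it exceeded the animal's own. The pairing rests on the labels. Replicates differed beyond sampling noise, with a chi-square per degree of freedom of 26.6 or more. Alternatives were the replicate block, RLE, library-size and macrophage identity scaling, other filters, DESeq2 1.42.0, limma 3.58.1 voom, thinning, and leaving out each animal or library.

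The members, the companion and marker lists and the rule for named genes were chosen with earlier results of these data known. The rule names the 9 members, Cd4, Cd8a and Cd8b1, the 3 genes with the smallest p among those past the threshold in each companion list, and every gene past it against the direction of most of its list. For each of 2 measures of likeness, with and without group means, it also names the 5 genes most like the CD3 chains. Il7r, Kit, Il1rl1, Klrk1 and Klrd1 are named outside the rule, as listed genes not past the threshold.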

Additional observations from a re-analysis of the deposited data

Results flagged for a closer look

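Cd4 in GPR35-negative replicate 1 stood apart from the other libraries of its group. It was at 80.9 CPM there and at 36.3, 32.7 and 38.3 CPM in GPR35-negative replicates 2 to 4, while GPR35-positive replicates 1 to 4 were at 172, 158, 167 and 173 CPM. The same library held the most macrophage marker RNA of its group, at 23039 summed CPM, and the part of that in the Cd4 value was not tested. It was the only group with such a library among 76 groups of 4 checked by Dixon's test at the 95% level. That test by chance marks about 5% of groups. The groups checked were those of the members, Gpr35 and the companion genes that the rule takes from the lists.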

How the results depend on the processing

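The 9 members had a negative log2 fold change in all 23 other settings wherever they were tested. With the animal as a replicate block in edgeR, 5 passed the threshold (Cd28, Cd2, Thy1, Nkg7 and Rora). With at least 5 CPM in 4 libraries, 4 of 4 tested members passed, and 23 companion genes were lower. The 4 were Cd28, Cd2, Nkg7 and Rora, as this filter dropped the CD3 chains, Thy1 and Gata3. Nkg7 stood at 1.24 to 2.05 CPM in GPR35-positive and 7.79 to 11.5 CPM in GPR35-negative libraries. The filter can thus keep a gene for its GPR35-negative level alone, so nothing is read from either count. Leaving out an animal or a library gave 3 to 9 members lower, 30 to 47 companion genes lower, 7 to 13 companion genes higher, 1681 to 3040 of all genes lower and 1569 to 2931 higher. Scaling by library size gave 4191 genes lower and 1693 higher over all genes. Identity scaling gave 82 companion genes lower and 0 higher, and 11753 of all genes lower and 89 higher; with the replicate block it gave 75 and 0, and 10610 and 112. Under identity scaling 0 companion genes were also higher in edgeR at an unadjusted p under 0.05, while edgeR with TMM scaling gave 11, DESeq2 12 and limma voom 14 at the adjusted threshold. Identity scaling turned the sign of 8 companion genes named by the rule: Cd4 (−0.30), Vav1 (−0.44), Runx3 (−0.08), Nfil3 (−0.25), Zbtb7b (−1.32), Id2 (−1.18), Hpgds (−0.08) and Ccl5 (−1.07). With the replicate block added these were −0.24, −0.37, −0.02, −0.23, −1.06, −1.11, −0.09 and −1.13. Of the 8 only Id2 passed, and only without the block (edgeR adjusted p = 0.0244, and 0.0725 with it). Identity scaling moved the median of all genes to −2.45, by its construction from genes that were higher in GPR35-positive libraries. Depth limits Thy1 and the CD3 chains, which rest on 7 to 88 counts in GPR35-positive libraries. It also limits Nkg7, on 37 to 88 counts there, and Gata3, on 24 to 129. Among named companion genes, the block lost the call of Ccl5 and gained those of Il7r and Klrd1.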
